A study of Mus musculus with 48 samples.

Results

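Mouse embryonic stem cells (ESCs) treated for 10 days with V580 were compared with cells of the E12.5 female gonad, by bulk RNA-seq. The comparison took in 6 of the 48 samples of the series, 3 libraries labelled V580_D10 and 3 labelled E12.5_GC, which were taken by their labels. The comparison itself was chosen with earlier results of these data known. V580 is the combination of vitamin C and AM580, an agonist of the retinoic acid receptor RAR alpha. The V580_D10 libraries came from female ESCs of the strain C57BL/6 that were induced towards gonadal somatic cell-like cells and collected at day 10. The E12.5_GC libraries came from C57BL/6 E12.5 female gonads with no treatment in the labels. The study separated dissociated E12.5 gonads on magnetic beads for the surface antigen SSEA1 and kept the cells without it, a step that does not by itself remove vascular or blood cells. For the induced cells, the labels do not say whether the SSEA1 step came before RNA extraction. The libraries of days 4, 6 and 8 of the same treatment, 3 each, served to place day 10 on the time course. The labels do not say whether the replicates of a group were separate cultures or animals, so that the p values measure only the spread between these libraries, which may be technical.

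In the mouse embryo, the gonad forms from the coelomic epithelium over the mesonephros. Its somatic cells need transcription factors such as Gata4, Wt1, Emx2, Lhx9 and Nr5a1, which act before the sexes diverge. In the ovary, Wnt4 and Rspo1 signalling and the factor Foxl2 then direct the supporting cells to become pre-granulosa cells, the cells that enclose the oocyte. Interstitial cells, a mesothelial surface layer, vessels and macrophages make up the rest of the somatic gonad. Retinoic acid is made by the Aldh1a enzymes, bound by the RAR receptors, and degraded by the Cyp26 enzymes, several of which are themselves targets of the receptors.

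Values were read as FPKM, read numbers scaled to gene length and library depth, for 13682 genes. The depth recovered from the FPKM steps was about 22271000, 28313000 and 20820000 reads in the day 10 libraries and 27786000, 23458000 and 19581000 reads in the gonad libraries. The root mean square difference in log2 value between replicates was 0.109 to 0.147 at day 10 and 0.3 to 0.462 in the gonad, and no pair of replicates agreed within sampling noise. A gene was tested where at least 3 of the 15 libraries reached 1 FPKM, which left 11512 genes. A gene could pass this filter through 1 group alone. For lists of genes barely detected in the other group, the filter therefore partly sets the direction. A tested gene was called higher or lower at an adjusted p below 0.05 and a change of at least 2-fold. The fit used 1 spread per gene, shared by all 15 libraries. The SE and p values of day 10 against the gonad may therefore understate the wider spread of the gonad libraries. All log2 differences are given on the log2(FPKM + 1) scale as day 10 minus gonad, which understates the change of low genes.

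Of the genes tested, 1055 (9.16%) were called higher at day 10 than in the E12.5 gonad and 832 (7.23%) were called lower, 16.4% in all. The 3 libraries of one group did not overlap those of the other for 1885 of the 1887 called genes, and likewise for 64.3% of all genes tested. The median log2 difference over all genes tested was 0.027. The calls more than 16-fold apart numbered 23 in favour of day 10 and 25 in favour of the gonad. The genes far higher at day 10 included smooth muscle and epithelial genes and Cyp26a1, which breaks down retinoic acid, and those far lower included factors of the gonad primordium and hemoglobin chains.

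Among the 10 largest rises, Actg2, the gamma actin of visceral smooth muscle, stood at 128, 101 and 125.3 FPKM in the day 10 libraries and at 0.532, 0.411 and 0.164 in the gonad libraries (log2 difference 6.45 ± 0.13 SE, adjusted p = 1.35e-14). Trap1a, an X-linked gene known from placenta and tumours, had 90.2, 90.1 and 92.2 FPKM at day 10 against 0.0611, 0.217 and 0.0434 (log2 difference 6.38 ± 0.065 SE, adjusted p = 7.9e-18). Pitx1, a homeobox factor of the hindlimb and pituitary, had 71.7, 73.6 and 81.1 FPKM against 0.461, 0.177 and 0.404 (log2 difference 5.83 ± 0.085 SE, adjusted p = 6.25e-16). The smallest log2 difference among the 10 was 5.01, and a lack of overlap between the libraries was a condition of the selection. S100g, a calcium-binding protein, was supported in the gonad by 2 recovered reads over the group against 2665 at day 10. The uroplakin Upk1a, a membrane protein of urothelium, had 56.3, 51.2 and 53.1 FPKM against 0.253, 0.15 and 0.359 (log2 difference 5.44 ± 0.096 SE, adjusted p = 4.66e-15). The other members of the 10 were Cyp26a1, Cdkn2a, Cldn4, Cnn1 and Acta2, which are described with their gene groups.

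At the other end, Kctd14 (GRCm38 chr7:97451323-97459557, forward strand, protein coding) had 0.455, 0.564 and 0.5798 FPKM at day 10 and 294, 340 and 297 in the gonad (log2 difference -7.66 ± 0.078 SE, adjusted p = 7.9e-18). Chrm4, a muscarinic acetylcholine receptor, had 0.374, 0.368 and 0.234 FPKM against 68.4, 62.4 and 61.1 (log2 difference -5.62 ± 0.13 SE, adjusted p = 3.58e-14). Both genes were thus abundant in every gonad library and below 1 FPKM in every day 10 library. The other large falls described here were Nr5a1, Lhx9 and Amhr2, which are gonadal genes, and Hba-a1, Hbb-bs and Plvap, which are genes of blood and vessels.

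**Figure D1:**
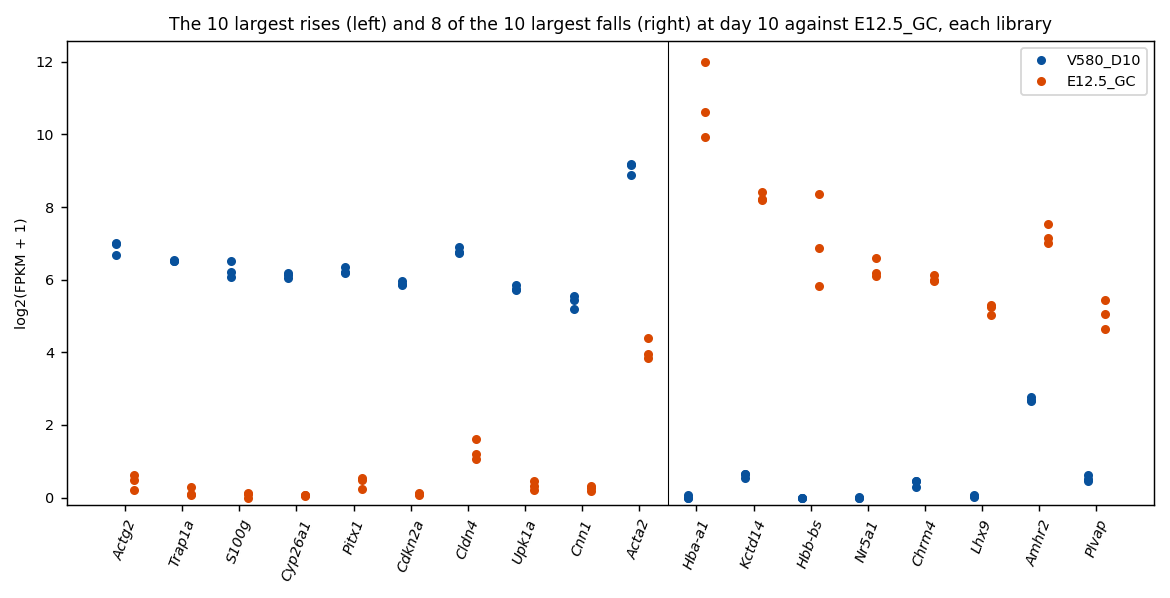
Expression as log2(FPKM + 1) of the 10 largest rises (left) and of 8 of the 10 largest falls (right) at day 10 against the E12.5 gonad, with blue points for the V580_D10 libraries and orange points for the E12.5_GC libraries, 3 each. The groups are apart for every gene shown because this was a condition of the selection. The hemoglobin genes Hba-a1 and Hbb-bs are spread more widely among the gonad libraries than the other genes shown.

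Genes of blood and vessel cells differed between the groups, and their values are given before the other gene groups. The summed level of 8 red cell genes was 4498, 1709 and 1057 FPKM in the gonad libraries and 8.26, 9.02 and 8.04 at day 10, and all 8 were highest in the gonad. Hba-a1 alone supplied 4045, 1559 and 967 FPKM of the gonad sums. Of 21 red cell genes listed, the 7 that could be tested were all called lower, with a median log2 difference of -1.85. Without E12.5_GC replicate 1, Car2 of this list was no longer called (log2 difference -0.637). Of 15 macrophage and mast cell genes tested, 12 were lower and 1, the lysosomal Cd68, was higher (median -2.25), and their summed level over 18 genes was 86.5, 89.8 and 47.4 FPKM against 17.2, 13.3 and 14.2. The complement gene C1qb and the adaptor Tyrobp had no recovered read in any day 10 library, which placed them at least 306-fold and at least 102-fold lower, taking 3 reads over the group as the floor. Hbb-bs was likewise at least 3030-fold lower, or at least 1560-fold without E12.5_GC replicate 1. Members near 0 in the induced libraries, such as Hbb-bs, could pass the filter only through the gonad libraries. The filter therefore partly set the direction of the red cell and leukocyte lists. For the endothelial list, 10 of 17 genes tested were lower and 2 higher (median -2.03), and the sum over the 17 genes was 218, 156 and 173 FPKM in the gonad against 95.99, 95.95 and 96.81. Most of the day 10 sum came from the 2 higher genes, Kdr and Flt1.

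Within the endothelial list the receptors for vascular endothelial growth factor went the other way. Kdr had 50.2, 50.7 and 51.7 FPKM at day 10 and 17.9, 10.7 and 18.1 in the gonad (log2 difference 1.68 ± 0.13 SE, adjusted p = 3.62e-08). Flt1 had 12.52, 13.7 and 11.9 FPKM against 2.76, 1.45 and 2.48 (log2 difference 2.11 ± 0.12 SE, adjusted p = 1.07e-09). The junction protein Pecam1, by contrast, had 0.281, 0.204 and 0.239 FPKM against 13.9, 9.65 and 12.96 (log2 difference -3.39 ± 0.095 SE, adjusted p = 2.98e-13), and the endothelial cadherin Cdh5 had 3.34, 3.92 and 2.85 against 35.04, 20.4 and 29.1 (log2 difference -2.71 ± 0.16 SE, adjusted p = 1.37e-09). The induced cells thus carried Kdr and Flt1 with little Pecam1, Tie1 or Plvap. In bulk libraries, fewer cells of a type and less RNA per cell cannot be told apart. Counting the calls without the red cell, endothelial and leukocyte lists left 1855 of the 1887, and the part of blood and vessel cells in the other results was not tested.

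The transcription factors of the early gonad were split at day 10. Of 20 listed, 16 were in the table and tested, of which 4 were lower, 2 were higher and 10 were not called (median log2 difference -0.28). Over all genes tested, 9.16% were higher and 7.23% lower, so that the count of higher factors was near the general share. Nr5a1, the nuclear receptor that drives gonad formation and steroid synthesis (GRCm38 chr2:38692656-38714542, reverse strand), was almost without reads at day 10. Its FPKM was 0, 0.0167 and 0 at day 10 and 71.7, 95.1 and 67.8 in the gonad, which corresponded to 2 recovered reads over the day 10 libraries and 23545 over the gonad libraries. Lhx9, a LIM homeobox factor that acts upstream of it (chr1:138825186-138848577, reverse strand), had 0.0331, 0.0409 and 0.0202 FPKM against 38.4, 31.6 and 37.2 (log2 difference -5.15 ± 0.065 SE, adjusted p = 9.81e-17). On any of the 4 days Nr5a1 averaged at most 0.0559 FPKM and Lhx9 at most 0.126.

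Other factors of the primordium were present at levels between a small part of and near those of the gonad. Gata4, a zinc finger factor needed for the genital ridge to thicken (chr14:63198922-63271692, reverse strand), had 46.4, 45.7 and 46.3 FPKM at day 10 against 135, 147 and 148 in the gonad (log2 difference -1.61 ± 0.059 SE, adjusted p = 5.01e-12). It had averaged 4.94 FPKM at day 4, 17.01 at day 6 and 29.97 at day 8, so that day 10 held its highest level of the time course, with 3.11-fold more in the gonad. Emx2, a homeobox factor of the urogenital epithelium, had 12.9, 13.4 and 14.5 FPKM against 41.7, 38.8 and 52.5 (log2 difference -1.63 ± 0.10 SE, adjusted p = 2.08e-09). The groups stood apart for both genes. Wt1, the Wilms tumour factor, had 51.99, 53.4 and 51.7 FPKM against 67.1, 64.5 and 85.95, a difference under the 2-fold threshold (log2 difference -0.45 ± 0.088 SE, adjusted p = 0.000378). Gata6 had 39.5, 37.8 and 40.2 FPKM against 41.8, 44.2 and 50.3 and was not called either (log2 difference -0.21 ± 0.073 SE, adjusted p = 0.0219). The order of day 10 to gonad levels was therefore lowest for Nr5a1 and Lhx9, intermediate for Emx2 and Gata4, and nearest to the gonad for Wt1 and Gata6.

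The 2 factors called higher were Nr2f1 and Osr1. Nr2f1, an orphan nuclear receptor, had 14.01, 14.1 and 14.8 FPKM at day 10 and 5.61, 4.81 and 5.57 in the gonad (log2 difference 1.28 ± 0.063 SE, adjusted p = 1.46e-10). Osr1, a zinc finger factor of intermediate mesoderm, had 10.5, 9.93 and 11.5 FPKM against 3.07, 2.66 and 1.95 (log2 difference 1.72 ± 0.093 SE, adjusted p = 4.27e-10). On the wider list of intermediate mesoderm and mesonephros genes, 5 of 12 tested were higher and 2 lower (median 0.71), with Emx2 and the receptor Ret on the lower side.

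**Figure D2:**
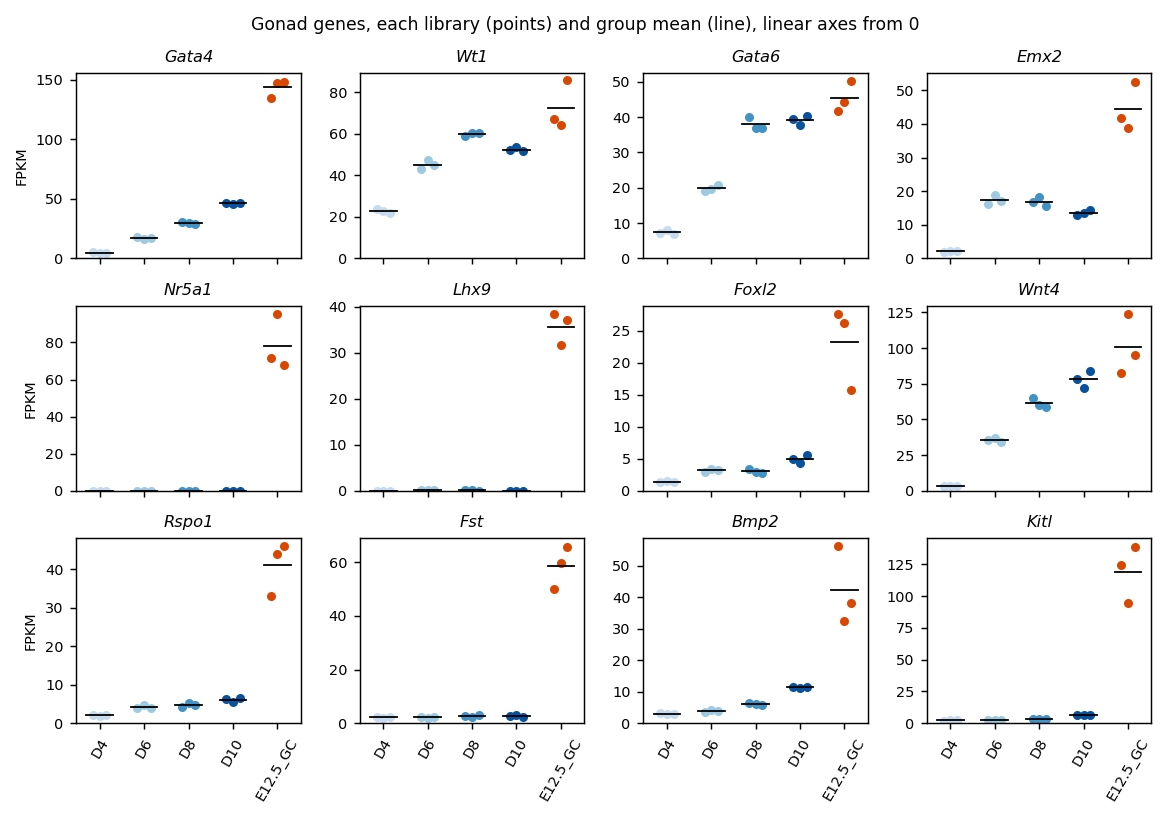
FPKM of 12 gonad genes in each library (points) with the group mean (line), for V580 days 4, 6, 8 and 10 (blue) and the E12.5 gonad (orange), on linear axes from 0. At day 10 Wt1, Gata6 and Wnt4 are near the gonad points, Gata4 lies at 45.7 to 46.4 FPKM below 135 to 148, and Nr5a1 and Lhx9 stay at the axis on all days.

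Genes of ovarian determination and of pre-granulosa cells were lower at day 10 as a list. Of 14 tested, 10 were called lower and the other 4 were not called, with a median log2 difference of -1.63. The summed level of the list was 162, 153 and 167 FPKM at day 10 and 650, 743 and 674 in the gonad. Foxl2, the forkhead factor that maintains ovarian supporting cells (chr9:98955288-98958543, forward strand), had 4.88, 4.296 and 5.65 FPKM against 27.6, 26.1 and 15.8 (log2 difference -1.99 ± 0.15 SE, adjusted p = 2.38e-08). The third gonad library was the lowest of its group for Foxl2 and still lay above all day 10 libraries. Rspo1, the secreted enhancer of Wnt signalling, had 6.35, 5.595 and 6.42 FPKM against 33.2, 44.04 and 45.9 (log2 difference -2.55 ± 0.11 SE, adjusted p = 3.56e-11). Wnt4 itself had 78.5, 72.2 and 83.8 FPKM against 82.7, 124 and 94.9 and stayed under the 2-fold threshold (log2 difference -0.34 ± 0.11 SE, adjusted p = 0.0134). For Wnt4 the libraries of the groups overlapped, since the third of day 10 lay above the first of the gonad.

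Other members of the list were much further from the gonad. Fst, which encodes the activin antagonist follistatin, had 2.56, 3.12 and 2.38 FPKM at day 10 against 50.01, 59.8 and 65.9 (log2 difference -4.01 ± 0.11 SE, adjusted p = 3.23e-13). Irx3, an Iroquois homeobox factor of pre-granulosa cells, had 2.96, 3.02 and 2.96 FPKM against 69, 86.3 and 63.3 (log2 difference -4.20 ± 0.094 SE, adjusted p = 3.47e-14). Kitl, the ligand of the germ cell receptor Kit, had 6.43, 6.73 and 6.49 FPKM against 124, 94.7 and 139 (log2 difference -3.98 ± 0.10 SE, adjusted p = 1.34e-13). These 3 genes were 18.2-fold to 24.5-fold higher in the gonad by mean FPKM. Wnt6 had 18.7, 13.6 and 17.4 FPKM against 152, 223 and 139 (log2 difference -3.27 ± 0.15 SE, adjusted p = 4.79e-11), while Bmp2 had 11.5, 11.3 and 11.3 against 56.1, 32.6 and 38.1 (log2 difference -1.77 ± 0.14 SE, adjusted p = 2.44e-08). Bmp2 had averaged 6.02 FPKM at day 8, and the difference from day 10 did not pass the fold threshold (Bmp2 log2 difference 0.82 ± 0.14 SE from day 8, adjusted p = 0.000401). Against day 6, 3 genes of the list were called higher and 1, Wnt6, lower at day 10, with 4 higher and 3 lower by edgeR and DESeq2. Against day 8 limma called 0 and edgeR and DESeq2 each called 1 higher, while 7 were higher and 3 lower at an unadjusted p below 0.05.

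Signals of the supporting lineage and steroid genes were also split. Amhr2, the receptor of anti-Mullerian hormone (chr15:102445367-102454633, forward strand), had 5.31, 5.43 and 5.87 FPKM at day 10 and 129, 184 and 141 in the gonad (log2 difference -4.53 ± 0.11 SE, adjusted p = 5.24e-14). It had averaged 24.6 FPKM at day 8 and was called lower at day 10 than at day 8 (Amhr2 log2 difference -1.97 ± 0.11 SE from day 8, adjusted p = 1.42e-08). The inhibin subunits diverged. Inha had 7.18, 8.84 and 8.79 FPKM against 32.1, 45.1 and 32.1 (log2 difference -2.00 ± 0.13 SE, adjusted p = 2.45e-09), and Inhbb had 2.46, 2.83 and 2.77 against 24.9, 26.8 and 30.2 (log2 difference -2.94 ± 0.075 SE, adjusted p = 1.15e-13). Inhba, the subunit of activin A, had 11.8, 12.2 and 12.3 FPKM at day 10 and 0.192, 0.214 and 0.264 in the gonad (log2 difference 3.42 ± 0.059 SE, adjusted p = 3.58e-15). The alpha and beta B subunits were thus lower at day 10, where both were still present, and the beta A subunit was higher.

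Of 9 steroid synthesis genes tested, 4 were lower, 1 was higher and 4 were not called (median -0.42). Hsd3b6, a 3 beta-hydroxysteroid dehydrogenase, had no recovered read at day 10 against 43.7, 11.6 and 10.5 FPKM in the gonad, at least 941-fold lower by the floor of 3 reads, or at least 475-fold without E12.5_GC replicate 1. Its paralogue Hsd3b1 had 3 recovered reads over the day 10 libraries and 1140 over the gonad libraries, and reads of these near copies may be shared between them. Fdxr, which passes electrons to mitochondrial P450 enzymes, had 6.67, 6.24 and 7.07 FPKM against 26.7, 42.5 and 26.3 (log2 difference -2.06 ± 0.13 SE, adjusted p = 3.31e-09). Por, the electron donor of microsomal P450 enzymes including Cyp26a1, went the other way with 110, 93.6 and 109 FPKM against 28.3, 35.2 and 24.1 (log2 difference 1.81 ± 0.11 SE, adjusted p = 2.02e-09). Hsd3b6 was highest in the first gonad library, the one with the most red cell RNA, with 2186, 491 and 372 recovered reads. Hsd3b1 was highest in the second, with 350, 611 and 179. What sets the spread of either gene was not tested.

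For ligands and factors that the gonad offers to germ cells, 6 of 13 tested were higher at day 10 and 3, namely Kitl, Kctd14 and Bmp2, were lower (median 0.94, but -0.104 among genes that passed a filter of 5 FPKM). Kctd14 stands on the list as an abundant gonadal gene and encodes no ligand. Bmp4 had 17.4, 16.8 and 16.3 FPKM at day 10 and 2.67, 2.24 and 1.93 in the gonad (log2 difference 2.45 ± 0.076 SE, adjusted p = 8.25e-13), the opposite direction to Bmp2. Fgf9, a growth factor of the fetal testis, had 3.902, 4.41 and 3.75 FPKM against 0.496, 0.532 and 1.02 (log2 difference 1.59 ± 0.11 SE, adjusted p = 8.77e-09). Igf1 had 24.2, 26.4 and 23.04 FPKM against 10.9, 8.56 and 12.3 (log2 difference 1.15 ± 0.097 SE, adjusted p = 6.76e-08). Germ cell transcripts had a summed level over 12 genes of 43.7, 43.4 and 43.6 FPKM at day 10 and 40.7, 54.1 and 44.2 in the gonad, which overlap. Ddx4, the germ cell RNA helicase, had 7.27, 7.25 and 6.28 FPKM against 0.561, 0.608 and 0.661 (log2 difference 2.30 ± 0.072 SE, adjusted p = 9.13e-13), whereas the RNA-binding Dazl and the synaptonemal Sycp3 did not pass the fold threshold by limma. Dazl and Sycp3 were called higher by edgeR and DESeq2, each of which called 6 genes of the germ cell list higher and 1 lower, against 2 higher and 1 lower by limma.

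Genes of the extracellular matrix were higher at day 10 in both its structural and its enzymatic classes. Of 23 collagen chains tested, 13 were called higher and the other 10 were not called (median 1.09), and the summed collagen level was 2764, 2439 and 2920 FPKM against 679, 605 and 661. Col1a1, the main fibrillar chain, had 809, 653 and 884 FPKM at day 10 and 88.8, 91.3 and 71.98 in the gonad (log2 difference 3.20 ± 0.14 SE, adjusted p = 5.09e-11). Col3a1, its partner in loose connective tissue, had 411, 376 and 415 FPKM against 76.8, 67.9 and 76.2 (log2 difference 2.43 ± 0.075 SE, adjusted p = 8.16e-13). Col6a1, a chain of the beaded filaments around cells, had 335, 305 and 362 FPKM against 51.5, 57.5 and 51.7 (log2 difference 2.62 ± 0.092 SE, adjusted p = 3.35e-12). No library of one group overlapped the other for any of these chains.

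Of 24 matrix glycoproteins, proteases and inhibitors tested, 16 were higher and the other 8 were not called (median 1.71). Fn1, fibronectin, had 180, 167 and 189 FPKM against 31.5, 20.6 and 28.9 (log2 difference 2.70 ± 0.12 SE, adjusted p = 4.92e-11). Lox, the oxidase that cross-links collagen and elastin, had 37.6, 30.4 and 35.3 FPKM against 3.32, 1.88 and 2.51 (log2 difference 3.33 ± 0.11 SE, adjusted p = 2.64e-12). Lox was low in all gonad libraries. Tnc, tenascin C, had 38.9, 33.1 and 37.9 FPKM against 2.91, 2.24 and 3.17 (log2 difference 3.32 ± 0.094 SE, adjusted p = 3.66e-13). Mmp2, a gelatinase, had 468, 390 and 478 FPKM against 60.1, 68.8 and 57.5 (log2 difference 2.82 ± 0.10 SE, adjusted p = 3.45e-12). Structural proteins, the cross-linking enzyme and a degrading enzyme were all on the same side.

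**Figure D3:**
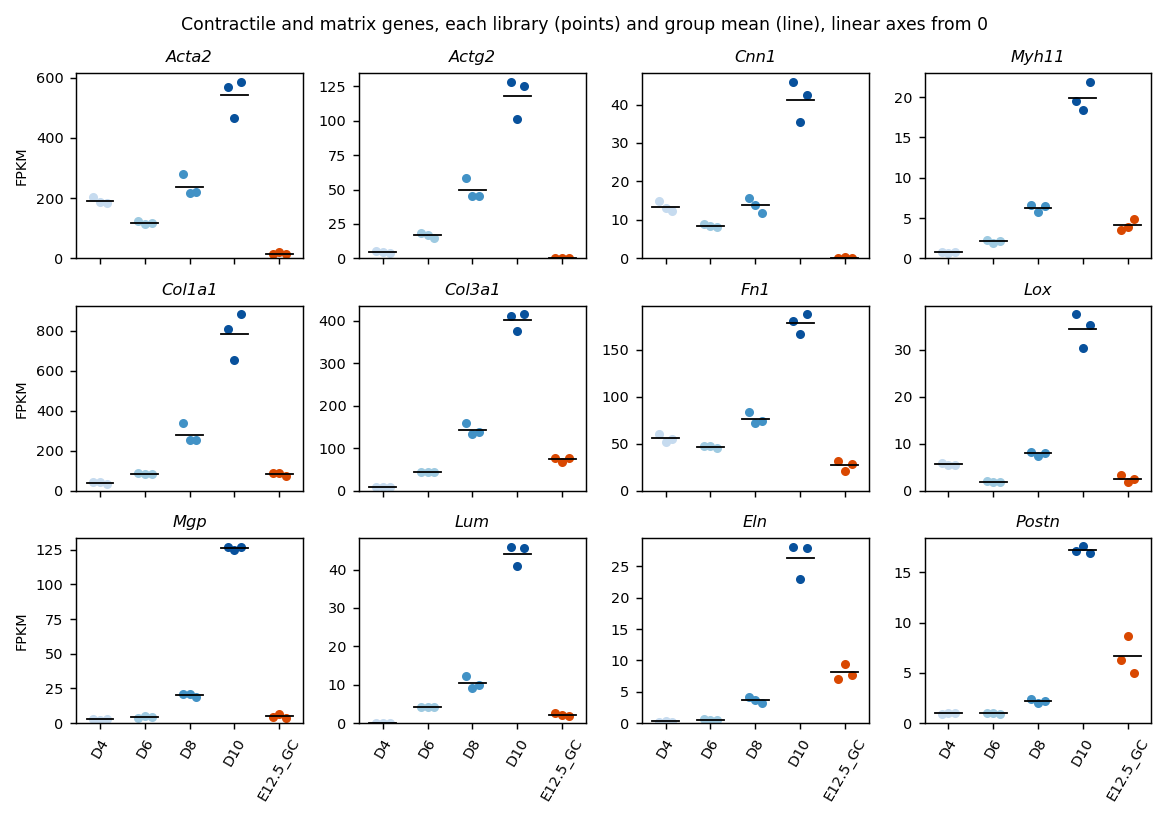
FPKM of 12 contractile and matrix genes in each library (points) with the group mean (line), for V580 days 4, 6, 8 and 10 (blue) and the E12.5 gonad (orange), on linear axes from 0. Day 10 is the highest group for every gene shown, and Col1a1 rises from near the gonad level at day 6 to between 653 and 884 FPKM at day 10.

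Smooth muscle and contractile genes were higher in 14 of 17 tested, with 1 lower (median 2.22). Acta2, smooth muscle alpha actin (chr19:34241090-34255590, reverse strand), had 571, 467 and 587 FPKM at day 10 and 14.6, 19.9 and 13.3 in the gonad (log2 difference 5.01 ± 0.14 SE, adjusted p = 2.39e-13). Cnn1, calponin, had 45.9, 35.4 and 42.5 FPKM against 0.211, 0.249 and 0.131 (log2 difference 5.13 ± 0.11 SE, adjusted p = 2.36e-14). Des, the muscle intermediate filament desmin, had 76.04, 59.1 and 72.3 FPKM against 6.26, 6.68 and 4.52 (log2 difference 3.37 ± 0.12 SE, adjusted p = 3.21e-12). Actin, calponin and desmin were thus raised together, with the second day 10 library the lowest of its group for each. Myh11, the smooth muscle myosin heavy chain, had 19.5, 18.4 and 21.9 FPKM against 3.58, 3.92 and 4.85 (log2 difference 2.04 ± 0.092 SE, adjusted p = 5.48e-11). The single gene on the lower side was Vim, the mesenchymal intermediate filament vimentin, with 67.6, 56.4 and 66.7 FPKM against 198, 248 and 187 (log2 difference -1.71 ± 0.11 SE, adjusted p = 3.33e-09). Heart muscle genes did not follow, with 2 of 7 tested higher and 2 lower (median 0.30).

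Of 16 interstitial and stromal genes, all tested, 8 were higher, 2 lower and 6 not called (median 1.04). The higher genes were secreted matrix proteins for the most part. Bgn, the proteoglycan biglycan, had 66.5, 59.6 and 69.3 FPKM against 15.4, 17.1 and 17.5 (log2 difference 1.90 ± 0.081 SE, adjusted p = 2.69e-11). Lum, lumican, had 45.9, 40.8 and 45.7 FPKM against 2.69, 2.07 and 1.84 (log2 difference 3.83 ± 0.10 SE, adjusted p = 1.71e-13). Mgp, matrix Gla protein, had 127, 124.5 and 127 FPKM against 4.55, 6.61 and 3.61 (log2 difference 4.45 ± 0.14 SE, adjusted p = 7.42e-13). Maf, a transcription factor of gonadal interstitial cells, was called lower at day 10 and had 1.88, 2.09 and 1.86 FPKM against 11.6, 8.82 and 11.02 (log2 difference -1.96 ± 0.093 SE, adjusted p = 1.01e-10). Pdgfra, the receptor that marks stromal progenitors, had 18.5, 20.7 and 20.3 FPKM against 17.98, 13.2 and 19.5 and was not called (log2 difference 0.24 ± 0.11 SE, adjusted p = 0.0598).

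Epithelial genes were higher in 16 of 17 tested, and the exception, Cdh3, was not called (median 2.39). Cdh1, the epithelial cadherin, had 49.8, 46.8 and 47.1 FPKM at day 10 and 1.58, 0.457 and 0.2903 in the gonad (log2 difference 4.85 ± 0.18 SE, adjusted p = 5.18e-12). The tight junction protein Cldn4 had 118, 107 and 106 FPKM against 2.04, 1.29 and 1.097 (log2 difference 5.51 ± 0.11 SE, adjusted p = 1.57e-14). Its relative Cldn7 had 36.3, 36.7 and 34.7 FPKM against 1.07, 0.438 and 0.393 (log2 difference 4.52 ± 0.11 SE, adjusted p = 1.14e-13). In the gonad, these 3 junction genes were at or below 2.04 FPKM in every library. Krt19, a keratin of simple epithelia, had 231, 209 and 241 FPKM against 12.4, 16.2 and 9.06 (log2 difference 4.10 ± 0.14 SE, adjusted p = 3.05e-12). Cdh1 was lower at day 10 than the 213 FPKM it averaged at day 4, and 0 genes of the list were called between day 8 and day 10 by limma, edgeR or DESeq2, with 3 higher and 2 lower at an unadjusted p below 0.05. Epithelial, smooth muscle and matrix genes were hence all above the gonad in the same libraries, and whether the same cells held them cannot be read from bulk RNA.

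Mesothelial and surface epithelial genes were higher in 10 of 14 tested and lower in 2 (median 1.29). Upk3b, a mesothelial marker, had 103, 94.6 and 101 FPKM against 42.5, 47.4 and 39.4 (log2 difference 1.19 ± 0.074 SE, adjusted p = 1.99e-09). Msln, mesothelin, had 31.9, 28.4 and 27.3 FPKM against 0.153, 0.0202 and 0.0242 (log2 difference 4.82 ± 0.097 SE, adjusted p = 1.35e-14). Msln stood further from the gonad than Upk3b. Upk1b had 27.8, 27.2 and 25.5 FPKM against 4.29, 5.98 and 5.62 (log2 difference 2.15 ± 0.11 SE, adjusted p = 3.24e-10). The 2 genes on the lower side were Lhx9 and the retinaldehyde dehydrogenase Aldh1a2. Keratins of this list stand on the epithelial list too.

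Genes of extraembryonic endoderm and placenta were also on the higher side. Of 24 visceral endoderm genes listed, 13 were in the table and 10 were tested. By limma 9 were higher, by edgeR 8 and by DESeq2 7 (median 2.46). Members low in the gonad could pass the filter only through the induced libraries, so that the filter partly set this direction. Foxa2, a forkhead factor of endoderm, had 7.94, 8.08 and 7.397 FPKM against 0.4404, 0.108 and 0.0216 (log2 difference 2.90 ± 0.10 SE, adjusted p = 4.13e-12). Cited1, a transcriptional coactivator, had 31.2, 28.9 and 31.1 FPKM against 1.64, 1.09 and 0.612 (log2 difference 3.92 ± 0.13 SE, adjusted p = 1.51e-12). Several of the members are shared by kidney or gut epithelium, and the yolk sac genes Afp, Ttr and Apoa1 were not analysed here.

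Of 20 parietal endoderm and basement membrane genes, 12 were higher and the other 8 were not called (median 1.21). Sox17, an endoderm factor that endothelium also uses, had 10.96, 11.3 and 12.9 FPKM against 4.28, 1.73 and 1.89 (log2 difference 1.87 ± 0.18 SE, adjusted p = 2.86e-07). Dab2, an endocytic adaptor, had 31.4, 32.5 and 30.5 FPKM against 8.87, 6.54 and 8.93 (log2 difference 1.84 ± 0.086 SE, adjusted p = 7.23e-11). Pth1r, the parathyroid hormone receptor, had 45.1, 40.2 and 46.8 FPKM against 5.19, 6.27 and 4.38 (log2 difference 2.85 ± 0.097 SE, adjusted p = 2.33e-12). All of these were apart between the groups. Lama1, the laminin chain most typical of parietal endoderm, had 19.4, 19.6 and 22.2 FPKM against 22.6, 18.96 and 25.04 and was not called. Of 21 placenta-associated genes listed, 9 were in the table and 8 were tested, of which 6 were higher and 1 was lower (median 1.94). Gata2, a factor of trophoblast and blood progenitors, had 20.6, 20.3 and 21.03 FPKM against 4.35, 2.27 and 2.39 (log2 difference 2.47 ± 0.13 SE, adjusted p = 3.86e-10).

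**Figure D4:**
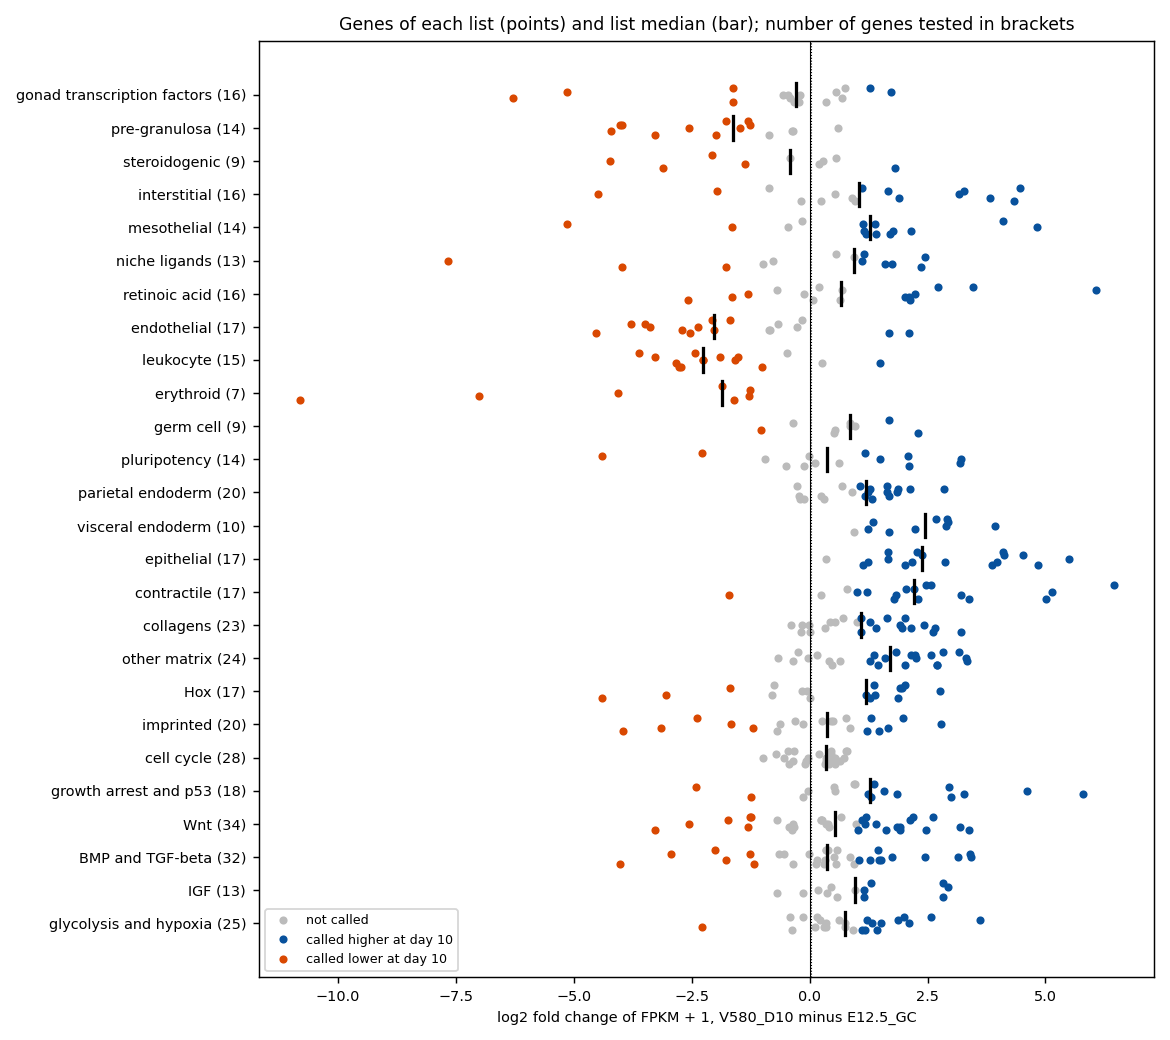
Log2 differences of FPKM + 1, day 10 minus E12.5 gonad, for the genes of each list shown (points) with the list median (bar) and the number of genes tested in brackets, where blue is called higher, orange called lower and grey not called. The blood, endothelial and pre-granulosa lists lie mainly left of 0, the epithelial, contractile and visceral endoderm lists mainly right of 0, and the cell cycle list holds no call.

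Retinoic acid genes were of interest because AM580 is a receptor agonist. The series holds no untreated culture of day 10. Effects of the compounds, of culture and of the origin of the cells can therefore not be told apart here. Of 16 tested, 7 were higher at day 10, 3 were lower and 6 were not called (median 0.67). The higher members were degrading enzymes, receptors and carriers. Cyp26a1, which oxidises retinoic acid (chr19:37697798-37701536, forward strand), had 69.1, 72.1 and 64.99 FPKM at day 10 and 0.0406, 0.0481 and 0.0288 in the gonad (log2 difference 6.07 ± 0.063 SE, adjusted p = 7.9e-18). It averaged 165 FPKM at day 4, 46.9 at day 6 and 65.1 at day 8. Cyp26b1, the form that clears retinoic acid in the fetal testis, had 28.7, 29.1 and 30.7 FPKM against 2.81, 1.21 and 1.56 (log2 difference 3.45 ± 0.14 SE, adjusted p = 2.25e-11). Dhrs3, which returns retinaldehyde to retinol, had 98.9, 85.1 and 98.5 FPKM against 14.8, 17.04 and 9.37 (log2 difference 2.73 ± 0.15 SE, adjusted p = 4.61e-10).

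Among the receptors, Rarb (chr14:16430839-16819156, reverse strand) had 6.59, 6.47 and 6.07 FPKM against 1.22, 0.6397 and 0.6499 (log2 difference 2.02 ± 0.10 SE, adjusted p = 1.61e-10), and Rarg had 21.7, 19.03 and 21.6 against 4.05, 3.59 and 3.25 (log2 difference 2.23 ± 0.073 SE, adjusted p = 1.36e-12). Rara, the receptor that AM580 binds, had 17.1, 16 and 18.02 FPKM against 14.6, 18.3 and 16.03 and was not called (log2 difference 0.06 ± 0.076 SE, adjusted p = 0.47). Stra6, the uptake receptor for retinol, had 31.8, 29.5 and 32.6 FPKM against 6.94, 5.91 and 6.38 (log2 difference 2.12 ± 0.077 SE, adjusted p = 4.58e-12). The enzymes that make retinoic acid were all on the lower side. Aldh1a1 had 3.76, 2.699 and 3.12 FPKM against 22.5, 32.2 and 19.1 (log2 difference -2.59 ± 0.14 SE, adjusted p = 5.04e-10), and Aldh1a2 had 29.6, 27.6 and 26.7 against 89.6, 93.4 and 86.9 (log2 difference -1.65 ± 0.064 SE, adjusted p = 8.59e-12). Aldh1a3 followed at 0.622, 0.643 and 0.707 FPKM against 3.32, 2.84 and 3.197.

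The 250 bases before each RefSeq start (GRCm38.p6), 32851 windows in all, were searched on both strands. The search was for the DR5 retinoic acid response element, a direct repeat of the receptor's core motif with 5 bases between. A gene with several starts was counted if any of its windows held the element. The element was found for 28 of 27025 genes (0.104%), for 3 of the 9095 tested genes with a promoter sequence (0.033%), and for 2 of 776 genes called higher (0.258%) and 0 of 610 called lower. The 2 called genes were Cyp26a1 and Rarb, shown here because both had a far higher level at day 10 than in the gonad. Capitals mark the element, which lies on the opposite strand 15 bases before the start in Cyp26a1 (chr19:37697558-37697807). In Rarb it lies on the gene's own strand 36 bases before a start (chr14:16575477-16575726, reverse strand). This Rarb start is an internal one, since the gene's outer 5' end is at chr14:16819156.
Cyp26a1: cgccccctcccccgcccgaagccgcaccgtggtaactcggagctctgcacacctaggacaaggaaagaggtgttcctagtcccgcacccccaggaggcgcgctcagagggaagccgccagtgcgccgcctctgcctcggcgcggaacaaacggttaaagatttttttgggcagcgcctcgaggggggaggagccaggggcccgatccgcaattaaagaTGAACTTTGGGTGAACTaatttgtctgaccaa
Rarb: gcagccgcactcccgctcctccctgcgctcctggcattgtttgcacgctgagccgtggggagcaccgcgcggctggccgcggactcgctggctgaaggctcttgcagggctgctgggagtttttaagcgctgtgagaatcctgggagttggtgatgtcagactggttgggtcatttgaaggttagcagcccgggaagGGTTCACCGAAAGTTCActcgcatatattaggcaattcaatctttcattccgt
A match describes these letters only, and receptor binding was not measured. Neither Cyp26a1 nor Rarb changed by 2-fold between day 8 and day 10 (Cyp26a1 log2 difference 0.08 ± 0.063 SE from day 8, adjusted p = 0.38) (Rarb log2 difference -0.29 ± 0.10 SE from day 8, adjusted p = 0.0408).

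Hox genes, which mark position along the body axis, split by paralogue number. Of 39 listed, 20 were in the table and 17 tested, with 9 higher, 3 lower and 5 not called (median 1.21). Of the 12 tested with paralogue numbers 3 to 8, 9 were higher and the other 3 not called (median 1.37), and of the 5 numbered 9 and 10, 3 were lower and the other 2 not called (median -1.69). The split by number was made after the values were seen, and a split by cluster was not tested. Among the genes not called, Hoxc8 (-0.80) and Hoxd8 (-0.75) had negative log2 differences, while Hoxb9 (-0.16) and Hoxc9 (-0.06) differed little. Hoxb4 had 14.1, 17.04 and 14.6 FPKM at day 10 and 1.71, 1.25 and 1.19 in the gonad (log2 difference 2.77 ± 0.087 SE, adjusted p = 9.22e-13), and Hoxc5 had 30.2, 27.3 and 31.2 against 6.64, 6.72 and 6.02 (log2 difference 2.03 ± 0.078 SE, adjusted p = 8.08e-12). Hoxd9 had 2.102, 1.59 and 1.91 FPKM against 58.7, 67 and 52.5 (log2 difference -4.39 ± 0.11 SE, adjusted p = 7.91e-14), and Hoxd10 had 0.0742, 0.0195 and 0.0529 against 8.997, 8.099 and 6.16 (log2 difference -3.05 ± 0.09 SE, adjusted p = 5.43e-13). Neither of the Hoxd genes passed 2-fold against day 8.

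**Figure D5:**
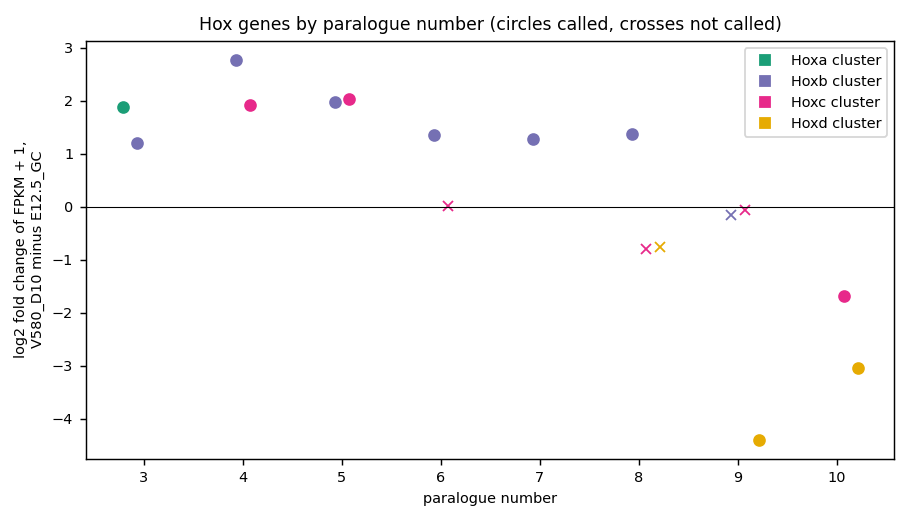
Log2 difference of FPKM + 1, day 10 minus E12.5 gonad, of 17 Hox genes against their paralogue number, coloured by cluster, with circles for called genes and crosses for the rest. Called genes numbered 3 to 8 lie above 0 and called genes numbered 9 and 10 lie below 0.

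No cell cycle gene was called between the groups by limma, whereas genes of growth arrest were. Of 28 S phase and mitosis genes, limma called 0 in either direction (median 0.36), and edgeR and DESeq2 each called 1 lower. At an unadjusted p below 0.05 and without a fold threshold, 17 were higher and 7 lower. The proliferation marker Mki67 had 16.7, 18.3 and 19.9 FPKM at day 10 and 16.4, 8.88 and 19.5 in the gonad. Its libraries overlapped between the groups. Of 18 Cdk inhibitors and p53 targets, 10 were higher and 2 lower (median 1.28). Cdkn2a, which encodes the inhibitor p16 and the p53 stabiliser Arf (chr4:89274471-89294653, reverse strand), had 61.2, 56.5 and 57.7 FPKM against 0.0921, 0.0728 and 0.0436 (log2 difference 5.80 ± 0.057 SE, adjusted p = 7.9e-18). Its neighbour Cdkn2b had 44.8, 36.1 and 41.9 FPKM against 1.09, 0.491 and 0.588 (log2 difference 4.62 ± 0.12 SE, adjusted p = 1.85e-13), and Cdkn1a, or p21, had 85.9, 76.3 and 83.1 against 11.4, 8.77 and 8.21 (log2 difference 3.00 ± 0.092 SE, adjusted p = 7.83e-13). Cdkn1b, or p27, went the other way with 13.8, 13.1 and 12.3 FPKM against 72.6, 66.3 and 82.3 (log2 difference -2.40 ± 0.075 SE, adjusted p = 8.65e-13). Cdkn2a had already averaged 43.03 FPKM at day 4.

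The remaining Cdk inhibitor of that family, Cdkn1c, is imprinted and had 60.1, 53.99 and 60.6 FPKM against 514, 662 and 413 (log2 difference -3.14 ± 0.13 SE, adjusted p = 2.01e-11). Of 20 imprinted genes tested, 6 were higher and 5 lower (median 0.37). Nnat, neuronatin, had 23.03, 21.3 and 23.7 FPKM against 126, 147 and 99.9 (log2 difference -2.39 ± 0.11 SE, adjusted p = 6.21e-11), and Mest had 60.5, 67.4 and 63.4 against 219, 177 and 223 (log2 difference -1.67 ± 0.086 SE, adjusted p = 2.35e-10). Both had been near the gonad at day 8, at 154 and 204 FPKM on average, and were called lower at day 10 than at day 8 (Nnat log2 difference -2.71 ± 0.11 SE from day 8, adjusted p = 2.02e-09) (Mest log2 difference -1.67 ± 0.086 SE from day 8, adjusted p = 1.08e-08). Dlk1, an imprinted ligand-like membrane protein of stromal progenitors, was on the higher side with 218, 181 and 217 FPKM against 67.5, 81.4 and 46.6 (log2 difference 1.67 ± 0.15 SE, adjusted p = 1.67e-07).

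Among pluripotency factors, 6 of 14 tested were higher than in the gonad and 2 lower (median 0.37), with none of the core factors among them by limma, while edgeR and DESeq2 called Pou5f1 lower. Pou5f1 had 0.479, 0.409 and 0.235 FPKM at day 10 against 1.15, 1.31 and 0.477 (log2 difference -0.50 ± 0.13 SE, adjusted p = 0.00334), and Sox2 had 0.546, 0.6697 and 0.374 against 0.4899, 0.643 and 0.124. Lin28a, an RNA-binding protein that blocks let-7 maturation, had 14.1, 15.1 and 13.2 FPKM against 0.802, 0.619 and 0.537 (log2 difference 3.20 ± 0.066 SE, adjusted p = 1.82e-14), and the T-box factor Tbx3 had 29.97, 30.2 and 31.4 against 3.31, 2.21 and 1.86 (log2 difference 3.21 ± 0.11 SE, adjusted p = 2.5e-12). The 2 lower genes were the Kruppel-like factors Klf2 and Klf4. Klf2 had 3.67, 4.25 and 3.46 FPKM against 235, 117 and 36.5 (log2 difference -4.41 ± 0.43 SE, adjusted p = 3.64e-07). The gonad values of Klf2 were widely spread, and those of day 10 lay below all of them.

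Secreted signals and their receptors differed in both directions. Of 34 Wnt pathway genes tested, 15 were higher and 6 lower (median 0.54). Wnt7b had 10.5, 8.87 and 9.54 FPKM against 0.353, 0.0783 and 0.104 (log2 difference 3.18 ± 0.10 SE, adjusted p = 1.49e-12), and the secreted Dkk3 had 42.7, 39.9 and 40.97 against 3.3, 3.12 and 2.798 (log2 difference 3.37 ± 0.071 SE, adjusted p = 2.06e-14). The receptors of Rspo1, Lgr4 and Lgr5, were both lower with their ligand. Of 32 BMP and TGF beta genes tested, 10 were higher and 6 lower (median 0.37). Tgfb3 had 88.4, 82.4 and 94.1 FPKM against 7.04, 8.41 and 7.01 (log2 difference 3.40 ± 0.076 SE, adjusted p = 3.19e-14), and the BMP antagonist Nog had 18.1, 15.4 and 19.2 against 1.23, 1.11 and 0.964 (log2 difference 3.14 ± 0.11 SE, adjusted p = 2.24e-12). Of 13 IGF genes tested, 6 were higher and the other 7 not called (median 0.97), with the binding protein Igfbp3 at 231, 226 and 230 FPKM against 38.2, 25.7 and 31.6 (log2 difference 2.83 ± 0.10 SE, adjusted p = 4.66e-12). Of 22 Yap1 and Wwtr1 targets and Hippo components, 4 were higher and 1 lower (median 0.24), and the target Ctgf had 64.8, 56.4 and 52.2 FPKM against 39.6, 14.7 and 18.2 (log2 difference 1.35 ± 0.24 SE, adjusted p = 0.000143). The shares over all genes tested were 9.16% higher and 7.23% lower.

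In the last step of the time course matrix and contractile genes rose further. Between day 8 and day 10, 149 genes (1.29% of those tested) were called, 112 higher and 37 lower. Contractile genes higher at day 10 than at day 8 numbered 9 of 17, and collagens 8 of 23. The 10 largest rises from day 8 included the matrix genes Mgp, Eln, Postn, Lox and Lum. Mgp averaged 20.2 FPKM at day 8 and 126 at day 10 (Mgp log2 difference 2.59 ± 0.14 SE from day 8, adjusted p = 1.21e-08). Eln, elastin, averaged 3.66 FPKM at day 8 and 26.4 at day 10 (Eln log2 difference 2.55 ± 0.11 SE from day 8, adjusted p = 2.02e-09), which took it from below the gonad mean of 8.08 FPKM to above it. Postn, periostin, passed the gonad mean of 6.65 FPKM in the same interval, from 2.21 to 17.19 (Postn log2 difference 2.50 ± 0.12 SE from day 8, adjusted p = 6.37e-09). These 2 genes therefore lay below the gonad at day 8 and above it at day 10.

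The falls from day 8 included genes that were high in the gonad. Amhr2, Nnat and Mest were among the 10 largest, as were Hsd11b2, which inactivates glucocorticoids, and Hs3st3b1, a heparan sulfotransferase. Hsd11b2 had 1.25, 0.921 and 0.888 FPKM at day 10, 5.502 on average at day 8 and 10.6, 11.2 and 8.47 in the gonad. Hs3st3b1 had 2.93, 3.395 and 2.83 FPKM at day 10 against a day 8 mean of 13.54, with 10.2, 9.53 and 13.6 in the gonad. Hmga2, a chromatin protein of embryonic tissue, fell from 128 FPKM to 44.8, 42.6 and 45, against 81.8, 65.1 and 86.6 in the gonad. Between day 6 and day 10, 786 genes (6.83%) were called, 613 higher and 173 lower at day 10. Rises thus made up 78% of these calls, and the list counts that follow are to be read beside that share. Of the transcription factors of the early gonad, 1, Gata4, was higher than at day 6 and 3, Cbx2, Nr2f1 and Nr2f2, were lower by limma, with 1 higher and 5 lower by edgeR and 1 higher and 6 lower by DESeq2. Among contractile genes 13 were higher and 0 lower than at day 6 by limma, with 14 higher and 0 lower by edgeR and DESeq2 and 16 higher and 0 lower at an unadjusted p below 0.05. Among collagens 12 were higher and 2, Col2a1 and Col11a1, lower, and 4 of the 28 cell cycle genes were lower than at day 6. The comparisons share the day 10 libraries, so that their values are given side by side only.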

How the data were processed

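Poly-A RNA libraries of bulk cells were sequenced on Illumina HiSeq. Per the labels, Trim Galore, FastQC, HISAT2, SAMtools, featureCounts and RSEM were used with mm10, without versions. The table of V580 days and E12.5_GC was deposited as FPKM, with 1 row a gene symbol. The tool that made this unit is not given in the sources used here, and neither is the rule by which the 13682 genes were kept. Values of 16 further columns were not used. The authors also deposited counts for other E12.5 libraries, used here as CPM only.

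A linear model on log2(FPKM + 1) was fitted with limma 3.58.1 in R 4.3.3 (trend and robust options), in one fit of 15 libraries, for genes at 1 FPKM or more in at least 3 libraries. Genes were called at a Benjamini-Hochberg adjusted p below 0.05 and at least 2-fold, and every adjusted p given is this one. The procedure was tested on simulated data. Depth was recovered from FPKM and the gene lengths that the authors deposited. With these, 96.83% to 97.17% of genes under 1000 reads came out whole within 0.05 of a read. GC content and gene positions were taken from GENCODE vM21. These reads were tested with edgeR 4.0.16 and DESeq2 1.42.0 as alternatives. Precision of a single value is limited by 3 libraries a group.

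The comparison, the 38 gene lists and the naming rule were chosen with earlier results of these data known. Named genes were the 10 largest rises and falls (called, at least 5 FPKM in the higher group, no overlap), the first 3 and 4 largest called changes of each list, and genes the paper's text names. Gata6, Aldh1a2, Aldh1a3, Cd68, Cdh3, Cdkn1b, Fgf9, Flt1, Hoxb9, Hoxc8, Hoxc9, Hoxd8, Lgr4, Lgr5, Maf, Myh11, Ret and Vim, and other list members named only by a count, were chosen after their values were seen. The values of 3 genes that this rule names are not reported here.

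Alternatives were other pseudocounts, filters, scalings, models and libraries left out. The main fit did not pair the samples by replicate number.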

Additional observations from a re-analysis of the deposited data

How the results depend on the processing

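Between day 10 and the gonad, 1887 genes were called, and 7993 without a fold threshold and 1230 with the fold inside the test (treat). Leaving out 1 library gave 1861 to 1955. A pseudocount of 0.1 gave 2614, quantile normalization 1877, the 2 groups alone 1877, and the recovered reads 2709 with edgeR and 2703 with DESeq2. Between day 10 and day 8 the count was 149, and 346 with a pseudocount of 0.1, 3966 without a fold threshold, 35 with treat, 410 with edgeR and 415 with DESeq2 (129 to 172 with a library left out). Between day 10 and day 6 it was 786, and 1276, 6666, 362, 1396 and 1399 under the same alternatives (758 to 827). The edgeR, DESeq2 and cell type list alternatives were added after seeing the data.

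Of 196 named genes tested, 165 were called and 154 of these had a value under all 20 alternatives, of which 143 were called under each. The other 11 lacked a value under at least 1 alternative, and 7 of them were called under each that gave one. Sign changes were seen only for genes that were not called. The log2 difference was -0.028 for Igf1r and -0.038 for Lmx1a without E12.5_GC replicate 2, -0.008 for Rara without E12.5_GC replicate 1, and for Sox2 -0.016 with quantile normalization and -0.037 without E12.5_GC replicate 3. With each library left out in turn it ranged from -0.028 to 0.406 for Igf1r, -0.038 to 0.368 for Lmx1a, -0.008 to 0.144 for Rara and -0.037 to 0.237 for Sox2. List medians kept their sign under every alternative, except that a filter of 5 FPKM gave -0.104 for the niche ligands, -1.073 for the heart muscle list and 0.341 for the neuronal list. A replicate block left the counts of calls at 1887, 149 and 786. The fold differences are the same in that balanced fit, and the 2-fold threshold set nearly all calls: 1887 of 1887, 149 of 152 and 786 of 789 genes at 2-fold or more also passed the adjusted p. At the adjusted p alone, 7993, 3966 and 6666 genes passed without the block and 7987, 3930 and 6674 with it. Deviations of same-numbered day 10 and gonad libraries correlated at 0.086, -0.431 and -0.267, and those of day 10 and day 8 libraries at 0.276, 0.318 and -0.272. Deviations from the mean of 3 libraries are tied to each other, so that these values cannot decide whether the numbers pair the samples.

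The precision of low genes was limited by depth, and overlapping genes and near copies could not be separated, because the library kit does not mark strand. Gapdh and Aldoa were read as uncertain for that reason and are not used.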

Other observations

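Genes of immunity and metabolism, which the report does not describe, also differed. Of 22 complement, interferon and antigen presentation genes tested, 9 were higher at day 10 than in the gonad and 2 lower (median 0.86). The class I antigen H2-K1 had 36.7, 37.2 and 33.96 FPKM at day 10 and 3.55, 2.71 and 2.17 in the gonad (log2 difference 3.29 ± 0.11 SE, adjusted p = 1.19e-12), and the ubiquitin-like Isg15 had 22.2, 24.1 and 23.8 against 1.999, 2.03 and 1.69 (log2 difference 3.07 ± 0.14 SE, adjusted p = 5.78e-11). The interferon-induced membrane proteins split, with Ifitm3 at 228, 224 and 244 FPKM against 38.9, 56.3 and 40.5 (log2 difference 2.35 ± 0.12 SE, adjusted p = 1.34e-10) and Ifitm1 at 14.1, 16.6 and 18.7 against 309, 445 and 283 (log2 difference -4.29 ± 0.15 SE, adjusted p = 3.87e-12). Of 25 glycolysis and glucose transport genes, 11 were higher and 1 was lower (median 0.76). The glucose transporter Slc2a3 had 50.2, 45.8 and 49.5 FPKM against 3.65, 2.68 and 2.81 (log2 difference 3.62 ± 0.086 SE, adjusted p = 6.39e-14). The single lower gene was Ldhb, the heart-type lactate dehydrogenase subunit, with 89.3, 84.5 and 95.1 FPKM against 428, 553 and 351 (log2 difference -2.27 ± 0.12 SE, adjusted p = 4.95e-10). Of 22 lysosome and lipid genes tested, 5 were higher and 1 lower (median 0.65), and the tetraspanin Cd63 had 102, 92.6 and 98.6 FPKM against 56.2, 81.8 and 50.9, under the fold threshold (log2 difference 0.65 ± 0.12 SE, adjusted p = 0.000287).

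Smaller lists were mixed, and their counts are to be read beside the 9.16% higher and 7.23% lower of all genes tested. Of 8 adult granulosa genes tested, 4 were higher and 4 lower (median -0.15), and of 6 Sertoli and anti-Mullerian genes 2 were higher and 3 lower (median -1.44). Of 14 Notch genes, 2 were higher and 3 lower (median 0.48), of 13 Hedgehog genes 2 and 1 (median 0.45), and of 5 neuronal genes 1 and 1 (median -0.38). The 4 Y-linked genes listed were not analysed here.

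The immediate early genes Nr4a1, Fosb and Atf3 were among the 10 largest falls from day 8 to day 10, which fixes their direction between those days, and they were grouped after their values were seen. Nr4a1 had 16.2, 32.7 and 15.3 FPKM at day 10, 144 on average at day 8 and 96.4, 141 and 95.4 in the gonad. Fosb had 43.1, 52.3 and 40.3 FPKM at day 10, a day 8 mean of 143, and 274, 153 and 178 in the gonad. Atf3 had 19.5, 26.5 and 15.9 FPKM at day 10, a day 8 mean of 77.7, and 130, 101 and 50.9 in the gonad. How far handling of the cells contributes was not tested.

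In 2 other E12.5 gonadal somatic libraries of the series, deposited as counts and not scaled to gene length, Kitl had 379 and 377 CPM, Lhx9 346 and 342, and Nr5a1 217 and 246. Acta2 had 79.9 and 85.3 CPM there, Cdh1 0.82 and 1.16, and Cyp26a1 0.0512 and 0.0554. Cnn1 had 4.35 and 3.54 CPM and Actg2 4.46 and 2.71, although both stayed below 1 FPKM in every E12.5_GC library. Kctd14 had 1590 and 1620 CPM, and Chrm4 had 18.3 and 19.5. The genes given are a selection, and how far the 2 gonad preparations differ was not tested. These values stand in another table and unit and were not tested against day 10.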
